A study of Mus musculus with 4 samples.

Results

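RNA of 10 genes of the interleukin and tumor necrosis factor systems was compared between aged and young mammary fat pad (MFP): Il1b, Il18, Il33, Il1rn, Il1rl1, Tnf, Il6, Il10, Il15 and Il34. They were taken by symbol from a table of read counts on 55487 genes. The table covers 2 aged (14 months) and 2 young (8 weeks) MFP libraries from female C57BL/6J mice, for which the labels name no treatment or transgene. They are called biological replicates, without a statement of whether each is 1 mouse or a pool. The tissue was cut up and lysed whole, so each library mixes adipocytes with every other cell of the pad, and the labels do not say whether a lymph node was taken with it. Total counts ranged from 68803304 to 98402403, and 3 counts, taken as the detection floor, were 0.0337 to 0.0407 CPM (counts scaled to the library total by TMM). This floor covers counting error only. Markers of adipose and mammary tissue were present: 6 adipocyte markers summed to 4901 to 7598 CPM and 6 mammary luminal markers to 1368 to 3392 CPM. The 8 skeletal muscle markers summed higher than the adipocyte markers in every library. Their sum was 9720 and 13570 CPM in young and 37450 and 60060 CPM in aged MFP. The part of this difference between the ages in the results was not tested.

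Interleukins and TNF are secreted signals that act on nearby cells through surface receptors. IL-1β, IL-18 and IL-33 belong to the IL-1 family. IL-1β and IL-18 are made as inactive precursors and released after cleavage by caspase-1, while IL-33 is stored in the nucleus of stromal and barrier cells and freed when they are damaged. IL-1 receptor antagonist, from Il1rn, blocks IL-1 signalling, and Il1rl1 encodes ST2, the IL-33 receptor, which is carried by mast cells, group 2 innate lymphoid cells and regulatory T cells of fat. TNF and IL-6 are classical inflammatory mediators of adipose tissue, and IL-10 restrains them. IL-15 sustains natural killer and memory T cells, and IL-34 keeps macrophages alive through the receptor it shares with CSF1.

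The genes differed widely in level. Per kilobase of exon (CPM per kb, mean of the 4 libraries), Il34 was at 5.23, Il15 at 4.51 and Il33 at 3.92, and their libraries overlapped. Tnf was at 2.13 and Il18 at 1.79 CPM per kb, again with overlap, but the mean of Tnf was carried by 1 library. The next gene, Il1rl1, was at 0.520 CPM per kb, and its libraries all lay below those of Il18 and of Tnf. Il1b followed at 0.308, Il10 at 0.137, Il1rn at 0.0841 and Il6 at 0.0269 CPM per kb, and each of these overlapped its neighbour in the order.

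Il6 was nearest to the detection floor, with 3 counts or fewer in aged replicate 1 and young replicate 2 and with 10 and 7 counts in aged replicate 2 and young replicate 1. Il1b, Il1rn and Il10 were low, with at most 100 counts everywhere, and the lowest value among them was the 4 counts of Il1rn in young replicate 2. The plot of CPM by library shows both the order of the genes and the single libraries that stood apart.

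**Figure D1:**
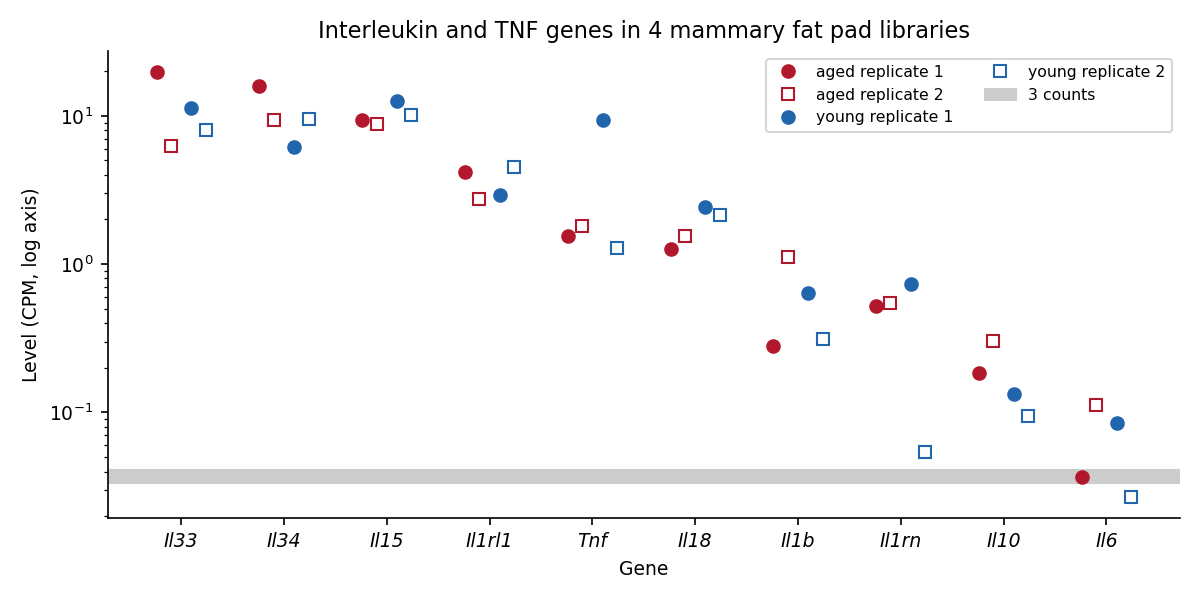
Level of each gene in CPM (log axis) in the 4 libraries, aged in red and young in blue, replicate 1 filled and replicate 2 open, with the band marking 3 counts. Il6 lies around the band, Tnf has 1 high point at 9.33 CPM in young replicate 1, and Il1rn has 1 low point at 0.0542 CPM in young replicate 2.

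No age difference passed the test for any of these genes. Of the 9 genes with enough counts to be tested, 0 were called by the quasi-likelihood test of edgeR, at a Benjamini-Hochberg adjusted p of 0.05 over all 22485 genes tested, where it called 0 genes (0%). Without adjustment 0 of the 9 had a p under 0.05, against 10.5% of all genes tested. DESeq2 likewise called 0 of them, against 3.67% of its 23039 genes. Of the 9, 3 had aged and young libraries that did not overlap (33.3%), below the 46.1% of all genes for which this held. Il10 had both aged libraries above both young ones, as 23.3% of all genes did, and Il15 and Il18 had both below, as 22.8% did. The aged-to-young log2 fold change was positive for 5 and negative for 4, with a median of 0.43 beside -0.04 over all genes tested. In bulk tissue a lower count can come from fewer cells of a type or from less RNA per cell, and these cannot be told apart. With 2 libraries an age, an exact two-sided permutation test of 1 gene cannot go below p = 0.333.

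The promoters of the 3 best known inflammatory genes of the group, Tnf, Il1b and Il6, are shown because they hold the lowest level of the set (Il6) and its largest fitted age difference (Tnf). Sequences are from RefSeq on GRCm38.p6, are the 250 bases before the transcript start, and read 5′ to 3′ on the strand of the gene. Entries were matched for 7 of the 10 genes. Tnf lies at chr17:35202008-35202257 (minus strand), Il1b at chr2:129371140-129371389 (minus strand) and Il6 at chr5:30012864-30013113 (plus strand). Capitals mark matches, on either strand, to 3 motifs. The TATA box was searched as TATAAA. For AP-1, a factor of Fos and Jun proteins, the letters were TGANTCA, where N is any base. The κB motif bound by NF-κB was taken to begin with GGGA and, after any 4 bases, to close with a pair of cytosines.
Tnf: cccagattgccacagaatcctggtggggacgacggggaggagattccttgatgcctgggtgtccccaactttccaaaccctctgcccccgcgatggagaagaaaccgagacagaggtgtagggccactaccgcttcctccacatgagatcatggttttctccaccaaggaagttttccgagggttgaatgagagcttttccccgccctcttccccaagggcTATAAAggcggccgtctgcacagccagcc
Il1b: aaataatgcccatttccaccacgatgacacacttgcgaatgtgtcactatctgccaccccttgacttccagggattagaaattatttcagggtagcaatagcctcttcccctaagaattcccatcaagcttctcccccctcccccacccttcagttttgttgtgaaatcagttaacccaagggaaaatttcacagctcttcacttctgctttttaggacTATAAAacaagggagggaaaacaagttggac
Il6: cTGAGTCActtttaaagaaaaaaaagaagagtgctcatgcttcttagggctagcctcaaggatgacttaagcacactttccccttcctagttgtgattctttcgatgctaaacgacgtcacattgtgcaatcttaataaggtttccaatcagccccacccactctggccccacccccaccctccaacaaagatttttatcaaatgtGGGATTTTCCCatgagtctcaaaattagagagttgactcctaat
A TATAAA match began 29 bases before the start in Tnf and 31 bases before it in Il1b, and 12.4% of 32851 promoters of this length hold one. Il6 had 2 overlapping κB matches, on the 2 strands, beginning 44 and 43 bases before the start, and an AP-1 match at 249 bases. Of all promoters, 17.6% hold a κB and 6.75% an AP-1 match. The first Il1rn promoter also had a κB match, at 54 bases, and an AP-1 match at 141 bases. These are matches of letters within a short window and describe no binding.

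Il1b (ENSMUSG00000027398, chromosome 2, 129364570 to 129371139, minus strand of GRCm38), the main secreted ligand of the IL-1 receptor, had 23 counts in aged replicate 1, 100 in aged replicate 2, 52 in young replicate 1 and 23 in young replicate 2. The lowest value occurred at both ages, so the ages overlapped. Its log2 fold change was 0.57 (standard error 0.83, adjusted p = 0.783 in edgeR). The direction rested on aged replicate 2: without it the log2 fold change was -0.75. Il1b shares exon bases with Il1bos on the other strand, and whether counting used the strand is not given in the sources used here.

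Il1rn (ENSMUSG00000026981, chromosome 2, 24336853 to 24351494, plus strand), the antagonist of IL-1, had 43 and 49 counts in aged and 60 and 4 in young MFP. The young libraries thus stood on both sides of the aged ones and differed 13.5-fold in CPM. The exact 95% Poisson interval of the 4 counts ran from 1.09 to 10.2, well under that of any other library. Its log2 fold change was 0.44 (standard error 1.14, adjusted p = 0.882 in edgeR). It was 3.27 without young replicate 1 and -0.43 without young replicate 2.

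Within a library, the ratio of antagonist to ligand needs no scaling between libraries. Il1rn counts per Il1b count were 1.87 and 0.490 in aged and 1.15 and 0.174 in young MFP. The ratio was higher in replicate 1 than in replicate 2 at both ages, and the ages overlapped. Il1rn has the longer exons, and per kilobase it lay below Il1b in every library, at 0.0950 and 0.0994 against 0.148 and 0.589 CPM per kb in aged and 0.132 and 0.00979 against 0.333 and 0.163 CPM per kb in young MFP. The signalling receptor Il1r1 was at 52.4 and 47.0 CPM in aged and 37.4 and 39.5 CPM in young MFP, with no overlap, with a log2 fold change at 0.37 (standard error 0.14, adjusted p = 0.486 in edgeR). The decoy receptor Il1r2 was between 1.46 and 2.05 CPM and overlapped. The shared accessory chain Il1rap was at 7.61 and 8.05 CPM in aged and 8.93 and 9.20 CPM in young MFP (log2 fold change -0.21, standard error 0.20, adjusted p = 0.666 in edgeR).

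Il18 (ENSMUSG00000039217, chromosome 9, 50554827 to 50581840, plus strand), a ligand that drives interferon-γ release, had 103 and 138 counts in aged and 200 and 157 in young MFP. In CPM these were 1.26 and 1.55 against 2.44 and 2.13, so both aged libraries lay below both young ones. Its log2 fold change was -0.70 (standard error 0.31, unadjusted p = 0.086, adjusted p = 0.509 in edgeR), the lowest unadjusted p of the 9 genes. It stayed between -0.86 and -0.57 whichever library was left out, and among the 9 genes Il15, Il34 and Il10 likewise kept their sign.

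Il18bp, which encodes the soluble protein that captures IL-18, also lay lower in both aged libraries, at 11.8 and 13.1 CPM against 14.5 and 14.4 (log2 fold change -0.22, standard error 0.18, adjusted p = 0.633 in edgeR). Its counts per Il18 count were 9.33 and 8.46 in aged and 5.95 and 6.75 in young MFP, so the ratio was higher in both aged libraries. As a share of both genes' counts, the exact 95% interval of Il18bp was 85.09% to 88.93% in young replicate 2. This overlapped the 88.38% to 92.03% and 87.64% to 91.05% of the aged libraries. The receptor chains were, like Il18 and Il18bp, highest in young replicate 1, by a wider gap: Il18r1 was at 24.5 CPM there and 8.92 to 16.0 CPM elsewhere, and Il18rap at 8.41 CPM there and 1.86 to 2.57 CPM elsewhere. Casp1, the protease that matures IL-1β and IL-18, was at 7.28 and 10.2 CPM in aged and 7.58 and 4.43 CPM in young MFP and overlapped.

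Il33 (ENSMUSG00000024810, chromosome 19, 29925114 to 29960718, plus strand), the alarmin of the group, had 1613 counts in aged replicate 1, 560 in aged replicate 2, 920 in young replicate 1 and 595 in young replicate 2. The aged libraries were the highest and the lowest of the 4 in CPM, at 19.7 and 6.29, with the young at 11.2 and 8.06. On the log2 scale the aged-to-young change was 0.43 (standard error 0.61, adjusted p = 0.777 in edgeR) and turned to -0.63 without aged replicate 1. Counting error does not cover this spread, since the 95% Poisson intervals of the aged counts were 1535 to 1694 and 515 to 608.

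Il1rl1 (ENSMUSG00000026069, chromosome 1, 40429570 to 40465415, plus strand), the receptor of IL-33, had 343 and 244 counts in aged and 240 and 331 in young MFP. Each age held 1 library near 4 CPM and 1 near 3 CPM (4.20 and 2.74 in aged, 2.93 and 4.49 in young MFP), and the log2 fold change was -0.10 (standard error 0.39, adjusted p = 0.927 in edgeR). It was 0.18 without aged replicate 2 and 0.26 without young replicate 2. Receptor counts per Il33 count were 0.213 and 0.436 in aged and 0.261 and 0.556 in young MFP, again with the lower value in replicate 1 of each age.

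Tnf (ENSMUSG00000024401, chromosome 17, 35199381 to 35202007, minus strand) had the largest fitted difference between the ages among the 9 genes, and it rested on 1 library. Its counts were 126 and 162 in the aged libraries and 765 and 95 in young replicates 1 and 2. Young replicate 1 was the highest and young replicate 2 the lowest library in CPM, at 9.33 and 1.29, a 7.25-fold gap within 1 age, while the aged libraries were at 1.54 and 1.82 CPM. With all libraries the log2 fold change was -1.66 (standard error 0.99, adjusted p = 0.555 in edgeR). Without young replicate 1 it turned to 0.38, and without young replicate 2 it was -2.46. Each of these fits holds 1 young library, so no p-value is given for it.

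Neighbouring genes of the same family shared the pattern. Lta (lymphotoxin α, 35203165 to 35205351, minus strand) and Ltb (lymphotoxin β, 35194439 to 35196320, plus strand) flank Tnf on chromosome 17, and both are made mainly by lymphocytes. Lta had 13 and 42 counts in aged and 538 and 13 in young MFP, and Ltb had 102 and 728 in aged and 8654 and 35 in young MFP. Per Tnf count, Ltb counts were 11.3 in young replicate 1 and 4.49 in aged replicate 2, but 0.810 in aged replicate 1 and 0.368 in young replicate 2. The log2 fold changes of -3.41 for Lta and -3.49 for Ltb (standard errors 1.77 and 2.40, adjusted p = 0.534 and 0.582 in edgeR) turned to 0.84 and 3.31 without young replicate 1.

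Lymphocyte markers followed the same order of libraries. The 5 B cell markers summed to 5.25 and 60.8 CPM in aged and 448 and 2.55 CPM in young MFP, and all 5 were highest in young replicate 1. Of the 9 T and natural killer cell markers, 8 were highest there. Without Gata3, which luminal epithelium also expresses and which was set aside after its values were seen, the other 8 summed to 9.96 and 48.7 CPM in aged and 531 and 5.60 CPM in young MFP, a 94.8-fold gap between the young libraries. The part of these markers in the Tnf values was not tested. The summed level of the macrophage markers was 390 and 476 CPM in aged and 607 and 286 CPM in young MFP, and 9 of the 10 had a positive log2 fold change. Young replicate 1 was the highest library for 1 of the 10, Lyz2 (lysozyme), which was at 73.9 and 119 CPM in aged and 374.5 and 45.9 CPM in young MFP and made up most of the sum there. Of the 6 neutrophil markers, Ly6g and Retnlg were at 0 to 2 counts, S100a8 and S100a9 at 5 to 19 and Csf3r at 229 to 439, and Cxcr2 had 92 counts in young replicate 1 and 4 to 9 elsewhere.

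**Figure D2:**
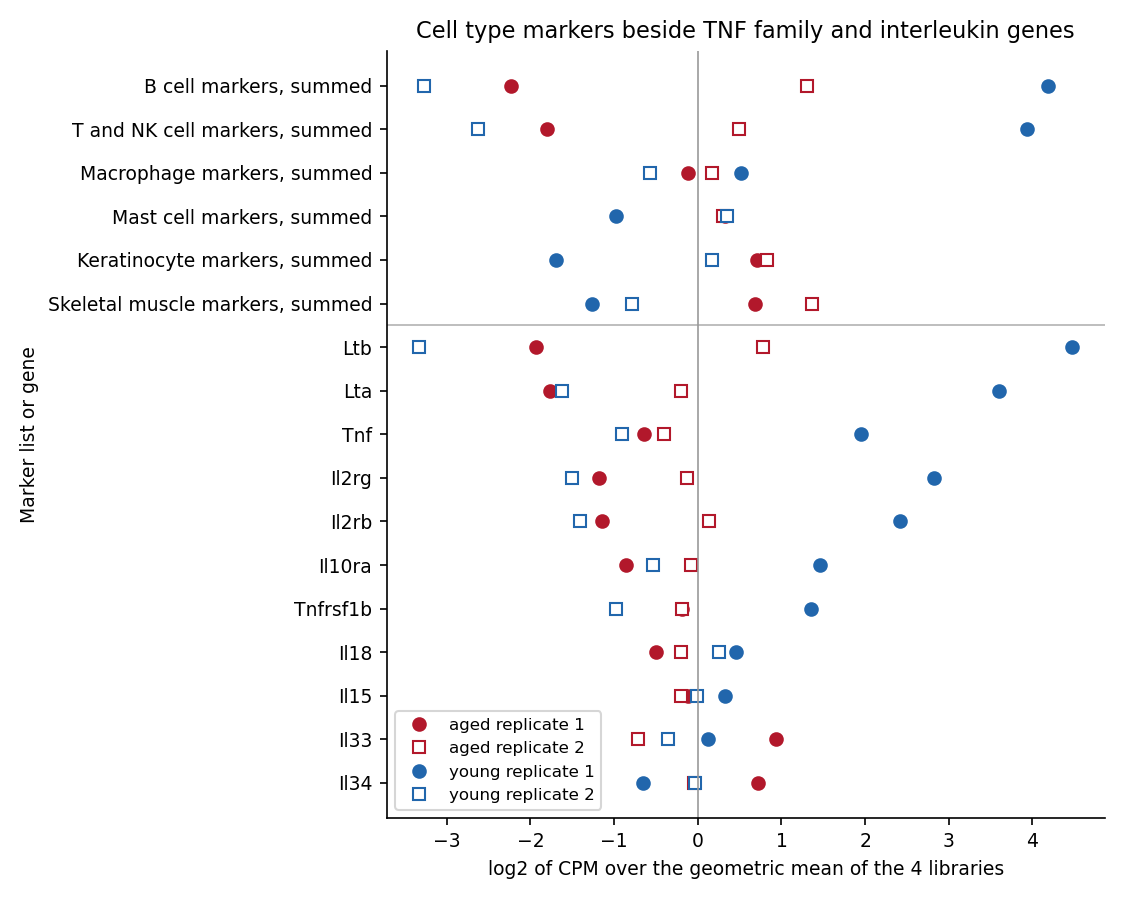
Summed markers of 6 cell types (above the line) and single genes (below it), as log2 of CPM over the geometric mean of the 4 libraries, aged in red and young in blue, replicate 1 filled and replicate 2 open. The T and natural killer sum leaves out Gata3. The mast cell sum is mostly Kit, at 97.7 of 101 CPM in young replicate 1 and 240 of 252 CPM in young replicate 2. Kit overlapped between the ages, while 6 of the 8 mast cell markers were higher in both aged libraries. Young replicate 1 lies far right for lymphocyte markers, Ltb, Lta, Tnf, Il2rg and Il2rb, while for Il18, Il15, Il33 and Il34 the libraries lie closer together.

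The 2 TNF receptors differed in how they varied. Tnfrsf1a, the receptor found on most cells, was at 100 to 129 CPM in all 4. Tnfrsf1b, the receptor enriched on immune cells, was at 86.9 CPM in young replicate 1, 17.4 CPM in young replicate 2 and 30.1 and 29.9 CPM in the aged libraries. Counts of Tnfrsf1b per Tnfrsf1a count were accordingly 0.871 in young replicate 1 and 0.151 to 0.267 in the other libraries. The log2 fold change of Tnfrsf1b was -0.80 (standard error 0.78, adjusted p = 0.683 in edgeR) and 0.79 without young replicate 1.

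Il6 (ENSMUSG00000025746, chromosome 5, 30013114 to 30019981, plus strand) had 3 and 10 counts in aged and 7 and 2 in young MFP. The 95% Poisson intervals of the 4 counts ran from 0.242 at the lowest to 18.4 at the highest. Those of any pair overlapped, which is not a test of a difference. Il6 was filtered out before the age test, and no fold change is given. Its receptor chains were well measured: Il6ra was at 45.2 and 37.3 CPM in aged and 98.5 and 39.5 CPM in young MFP, and Il6st (gp130, the signalling chain shared by the family) was at 529 and 428 CPM in aged and 395 and 329 CPM in young MFP. Il6st did not overlap between the ages, with a log2 fold change at 0.40 (standard error 0.21, adjusted p = 0.532 in edgeR). Of 15 other genes of IL-6 family signalling, edgeR and DESeq2 called 0. In edgeR 2 of the 15 had an unadjusted p under 0.05, both lower in aged MFP, beside 10.5% of all genes tested. Both aged libraries lay below both young ones for 4 of the 15, beside 22.8% of all genes, and above them for 0. Osm, a ligand of this family, had the largest change of the list, with 14 and 33 counts in aged and 315 and 11 in young MFP. Socs1, an inhibitor of the JAK kinases, was at 2.48 and 3.01 CPM in aged and 12.4 and 2.56 CPM in young MFP, so young replicate 1 was again highest.

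Il10 (ENSMUSG00000016529, chromosome 1, 131019845 to 131024974, plus strand), the anti-inflammatory member, had 15 and 27 counts in aged and 11 and 7 in young MFP. Both aged libraries lay above both young ones, at 0.183 and 0.303 CPM against 0.134 and 0.0949 CPM. The log2 fold change was 1.08 (standard error 0.49, unadjusted p = 0.092, adjusted p = 0.512 in edgeR), and it stayed between 0.67 and 1.38 when a library was left out. The counts are low: the 95% Poisson interval of aged replicate 1 (8.40 to 24.7) overlapped those of both young libraries (5.49 to 19.7 and 2.81 to 14.4). Both aged libraries were also above both young ones for 6 of 8 mast cell, 4 of 10 macrophage and 6 of 6 adipocyte markers. The same held for 8 of 8 skeletal muscle, 4 of 6 tested keratinocyte, 3 of 6 stromal and 1 of 5 endothelial markers. It held for 0 of 6 luminal, 0 of 9 T and natural killer, 0 of 5 B cell and 0 of 2 tested neutrophil markers. Among all genes tested the share was 23.3%. Mast cell chymase, Cma1, was at 3.47 and 4.64 CPM in aged and 0.403 and 1.76 CPM in young MFP. The part of any of these cell types in the Il10 values was not tested. Il10 counts per Tnf count were 0.119 and 0.167 in aged and 0.0144 and 0.0737 in young MFP. The lowest of these was that of young replicate 1, with its 765 Tnf counts. As a share of both genes' counts, the exact 95% interval of Il10 was 2.80% to 13.63% in young replicate 2. This overlapped the 6.08% to 16.94% and 9.63% to 20.1% of the aged libraries. The receptor chain Il10ra was highest in young replicate 1, at 40.7 CPM against 8.17 to 14.0 CPM elsewhere, and Il10rb was at 29.9 CPM there against 13.5 to 20.0 CPM.

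Il15 (ENSMUSG00000031712, chromosome 8, 82331632 to 82403222, minus strand) had 763 and 780 counts in aged and 1037 and 742 in young MFP. In CPM the aged libraries were at 9.33 and 8.76 and the young at 12.7 and 10.1, the tightest aged pair but for Il1rn. Its log2 fold change was -0.33 (standard error 0.22, adjusted p = 0.577 in edgeR), and -0.15 without young replicate 1. Il15ra, which presents IL-15 to neighbouring cells, was also lower in both aged libraries, at 48.5 and 51.5 CPM against 57.1 and 61.6 CPM (log2 fold change -0.25, standard error 0.13, adjusted p = 0.535 in edgeR). The responding chains Il2rb and Il2rg, carried by lymphocytes, were at 66.6 and 59.5 CPM in young replicate 1, and at 4.73 to 13.8 and 2.97 to 7.68 CPM in the other libraries. Their log2 fold changes of -1.88 and -2.46 turned to 1.04 and 0.94 without that library.

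Il34 (ENSMUSG00000031750, chromosome 8, 110741829 to 110805924, minus strand), a survival factor of macrophages, had 1304 and 837 counts in aged and 502 and 699 in young MFP. Aged replicate 1 was highest at 16.0 CPM and young replicate 1 lowest at 6.12 CPM, while aged replicate 2 and young replicate 2 met at 9.40 and 9.47 CPM. The log2 fold change was 0.70 (standard error 0.39, adjusted p = 0.544 in edgeR), and 0.26 without aged replicate 1. Csf1, the other ligand of the receptor, was at 77.2 and 61.4 CPM in aged and 40.1 and 56.6 CPM in young MFP (log2 fold change 0.52, standard error 0.24, adjusted p = 0.514 in edgeR). The receptor Csf1r was at 66.3 and 71.7 CPM against 58.0 and 48.7 CPM (log2 fold change 0.37, standard error 0.15, adjusted p = 0.501 in edgeR). Both had no overlap between the ages. Csf1 counts per Il34 count were 4.84 to 6.55 and overlapped. The summed keratinocyte, mast cell, mammary luminal, endothelial and skeletal muscle markers were each lowest in young replicate 1, like Il34. The keratinocyte sum was 159 and 173 CPM in aged and 30.0 and 110 CPM in young MFP. Not every gene of these lists followed its sum. Of the keratinocyte list, Krt10 was lowest in aged replicate 1, and Lor was at 0 counts in replicate 2 of both ages. In the endothelial list, Pecam1 was highest in young replicate 1, at 181 CPM, and Kdr lowest in aged replicate 2, at 136.5 CPM. Among the muscle markers, Myh1 and Mb were lowest in young replicate 2, at 1.99 and 1.91 CPM. The part of any of these cells in the Il34 values was not tested. Il34 shares exon bases with Gm15894 and Gm15895 on the other strand.

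**Figure D3:**
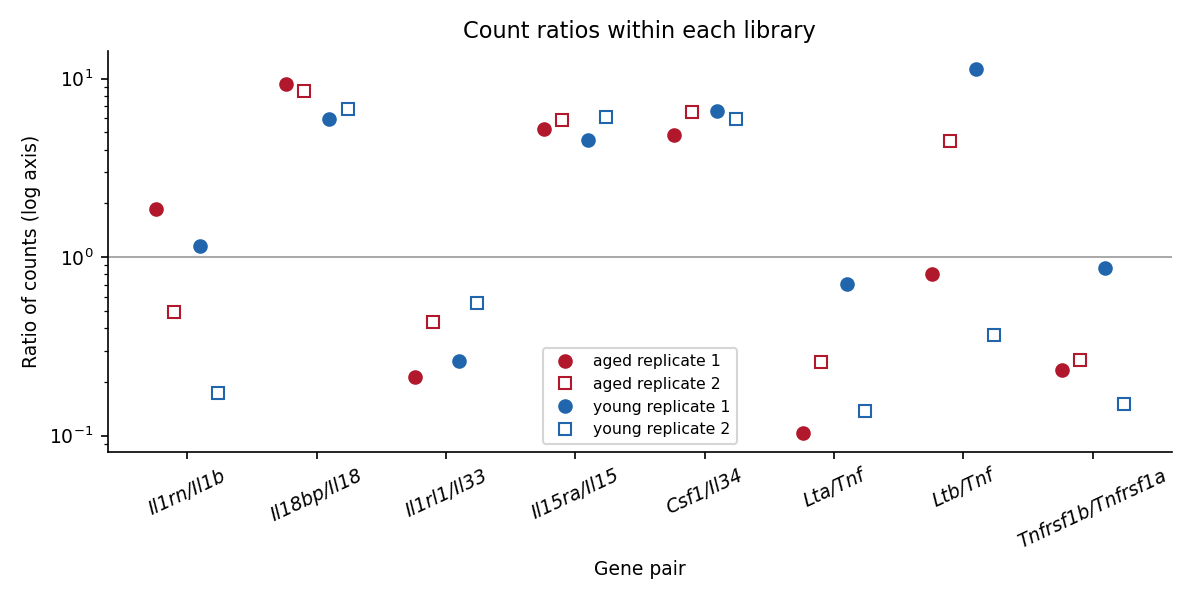
Ratio of 2 genes' counts within each library (log axis), with the line at equal counts, aged in red and young in blue, replicate 1 filled and replicate 2 open. Of the pairs drawn, Il18bp per Il18 has both aged libraries above both young ones. Il1rn per Il1b, Il1rl1 per Il33 and Il15ra per Il15 separate by replicate number. Lta, Ltb and Tnfrsf1b per partner peak in young replicate 1.

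Across the 18 receptor chains, binding proteins, second ligands and proteases of these genes, edgeR and DESeq2 called 0, and 0 had an unadjusted p under 0.05 in edgeR. The log2 fold change was positive for 7 and negative for 11, with a median of -0.21. Il1r1, Il6st, Csf1r and Csf1 had both aged libraries above both young ones, and Il1rap, Il18bp and Il15ra had both below, a lower share than the 46.1% of all genes tested that did not overlap in either direction. Young replicate 1 was the highest library for 10 of the 18, and for 4 of the 9 tested genes of the set itself (Il18, Il15, Tnf and Il1rn), beside 34.1% of all genes tested.

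**Figure D4:**
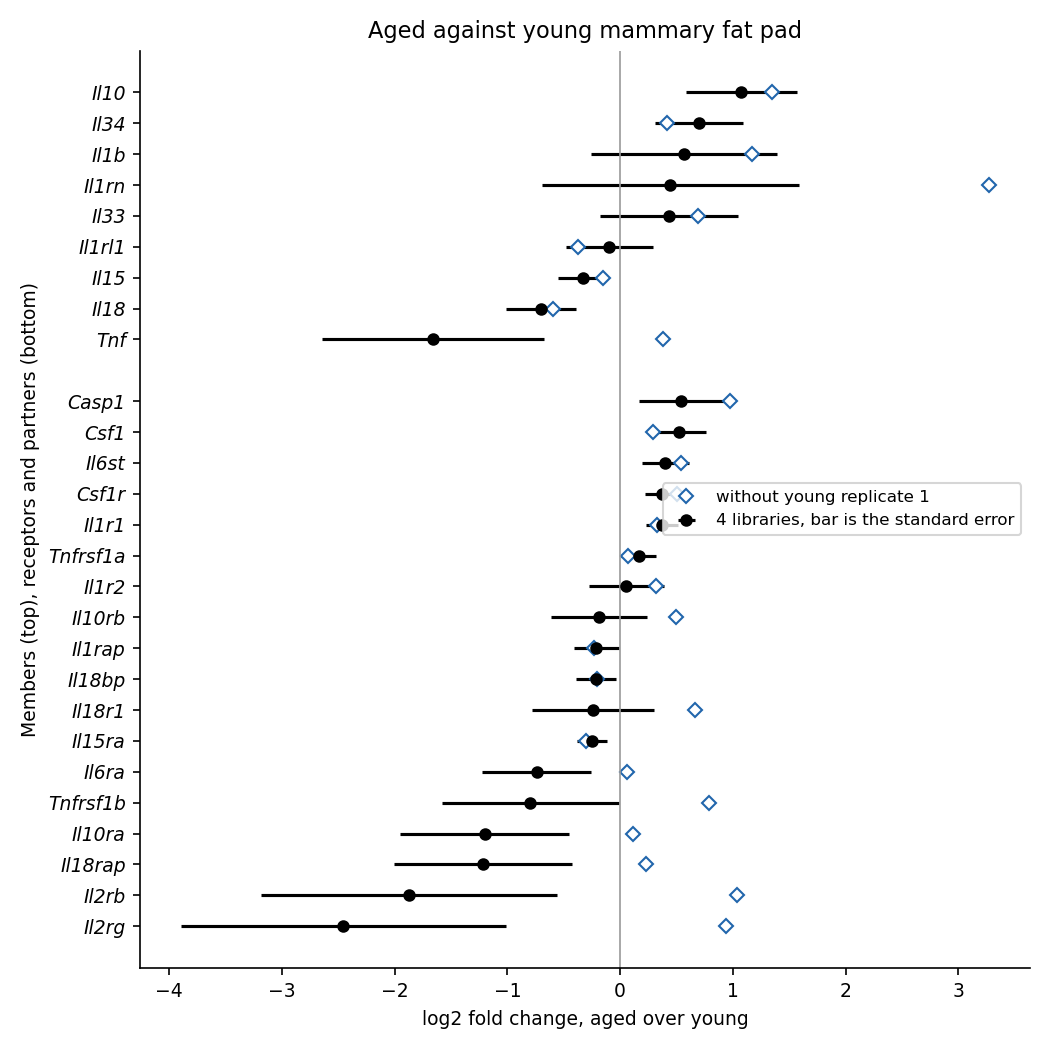
Aged-to-young log2 fold change with its standard error (black) for the 9 tested genes (top) and 18 receptors and partners (bottom), and the value without young replicate 1 (blue diamonds). Tnf moves from -1.66 to 0.38 and Il1rn from 0.44 to 3.27, while Il18 moves only from -0.70 to -0.60.

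The inflammasome, NF-κB and TNF lists gave 0 calls by either tool. In the inflammasome list (8 genes, median log2 fold change -0.62) Aim2, a DNA sensor, was at 2.23 and 4.07 CPM in aged and 18.1 and 4.30 CPM in young MFP, and Nlrc4, a sensor of bacterial proteins, at 1.59 and 2.04 against 6.43 and 2.11 CPM. In the NF-κB list (21 genes, median -0.23) Tnfaip3, its inhibitor, was at 11.6 and 16.8 CPM in aged and 69.2 and 9.36 CPM in young MFP, and Rel, a subunit, at 13.6 and 16.9 against 63.9 and 11.6 CPM. Young replicate 1 was highest for 5 of the 8 and 13 of the 21. In the TNF list (14 genes, median -0.28) it was highest for 11.

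Other IL-1 family and interleukin genes were mostly at or near 0 counts, or were not called. Of 8 further IL-1 family genes, 3 could be tested. Il1a had 25 and 19 counts in aged and 69 and 17 in young MFP. Sigirr, a dampening receptor, was at 12.8 and 13.2 CPM in aged and 31.4 and 18.3 CPM in young MFP (log2 fold change -0.94, standard error 0.32, unadjusted p = 0.039, adjusted p = 0.460 in edgeR). Of 25 other interleukins, 8 had 0 counts in every library, 10 were tested and edgeR and DESeq2 called 0. Il16 had most counts, at 21.6 and 24.6 CPM in aged and 122 and 20.1 CPM in young MFP, followed by Il17b and Il7, which overlapped. Il12b, a subunit of IL-12, had 5 and 25 counts in aged and 220 and 2 in young MFP, so that Il12b, like Il16, had young replicate 1 far above the rest.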

How the data were processed

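Total RNA of MFP was depleted of ribosomal RNA and sequenced from strand-specific libraries. The deposited values are the authors' raw counts, 1 column per library, unscaled. The submitters' processing notes name featureCounts, R 3.6.1, GRCm38 and hg38. The aligner, annotation and strand setting are not given in the sources used here. Groups came from sample titles.

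Counts were filtered with filterByExpr, scaled by TMM and tested with glmQLFTest (edgeR 4.0.16, R 4.3.3), with age as the only term and Benjamini-Hochberg adjustment over 22485 genes, against a threshold of 0.05. The standard error is the log2 fold change divided by the square root of F. DESeq2 1.42.0, other scalings and filters, a replicate block and leaving out each library were alternatives. Code was tested on simulated data. Intervals are exact at 95%. Coordinates and exon lengths are from GENCODE M21 on GRCm38, which held 55141 of 55487 identifiers.

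Named were the 10 genes, their 18 partners and, from each other list, genes called by either tool or otherwise the 2 with the largest fold change, plus the 3 most abundant other interleukins. Further marker genes and Il21 were named after their values were seen, and 1 gene that the rule names is not reported here. Members and lists were chosen with earlier results of these data known. Il36a and Il36rn were not matched. P-values measure the spread between these libraries only.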

Additional observations from a re-analysis of the deposited data

How the results depend on the processing

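Direction held for the 9 tested genes under RLE, upper-quartile and total-count scaling (0 of 27 values reversed). The edgeR test called 0 of them under every alternative run on all 4 libraries. Total counts alone moved the median of all genes from -0.04 to -0.22 on the log2 scale, and turned Il1r2 to -0.12 and Tnfrsf1a to -0.013. The count of the 9 at unadjusted p under 0.05 was 1 with total counts (Il18) and 1 with the crossed block (Il34). It was 0 under the other alternatives on all 4 libraries. DESeq2 called 845 genes where edgeR called 0.

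Same-numbered libraries tended to deviate in opposite directions from the means of their ages (correlation -0.48 across genes). Whether the numbers pair samples cannot be settled from it, since any difference between the libraries of an age enters it. With the replicate block edgeR called 0 genes and 0 of the 9, and 1346 genes had an unadjusted p under 0.05, against 2371 without it and 2494 with the pairing crossed, a choice made after seeing the data. Il17b turned to 0.044 under the replicate block and 0.042 under the crossed one. With a library left out this number ran from 837 to 6688.

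Genes with non-overlapping ages numbered 2 when at least 10 counts were required in every library. That filter drops Il10 and Il1rn, at 7 and 4 counts in young replicate 2, from the set. The share of all genes under it was not computed. Without young replicate 1, genes with non-overlapping ages numbered 6 of 9, against 76.4% of all genes, also a choice made after seeing the data. Leaving out each library in turn, the log2 fold change ran from -0.75 to 1.23 for Il1b (negative without aged replicate 2), -0.63 to 1.03 for Il33 (negative without aged replicate 1), -0.43 to 3.27 for Il1rn (negative without young replicate 2), -0.45 to 0.26 for Il1rl1 (positive without replicate 2 of either age) and -2.46 to 0.38 for Tnf. Like Tnf, these genes turned positive without young replicate 1: Il18r1 (-0.78 to 0.66), Il18rap (-1.91 to 0.23), Il2rb (-2.77 to 1.04), Il2rg (-3.37 to 0.94), Il6ra (-1.24 to 0.063), Tnfrsf1b (-1.52 to 0.79), Il10ra (-1.87 to 0.12), Il10rb (-0.64 to 0.50), Lta (-4.39 to 0.84), Ltb (-5.41 to 3.31), Tnfaip3 (-2.28 to 0.60), Rel (-2.05 to 0.39), Osm (-3.80 to 0.86), Socs1 (-2.16 to 0.10), Il1a (-1.68 to 0.17), Il12b (-4.44 to 2.60), Il16 (-2.39 to 0.20), Il7 (-0.92 to 0.38), Lyz2 (-1.95 to 1.07), Cd3d (-5.43 to 2.69), Cd8a (-4.83 to 3.15) and Cd79a (-6.22 to 4.44). S100a9 (-0.78 to 0.96) turned positive without young replicate 1 or aged replicate 1, Elf5 (-0.22 to 1.26) negative without young replicate 1, and Krt8 (-0.54 to 0.33) positive without young replicate 2. Without young replicate 2, Il1r2 turned negative (-0.16 to 0.31) and Il17b positive (-0.65 to 0.75), and without aged replicate 2, Il21 turned negative (-2.67 to 7.32, the latter against a library at 0 and set by the prior count). The causes were not tested. Depth limits Il6, Il10 and Il1rn most.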

Other observations

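Receptors of other interleukins, gathered by name after the values were seen, were mostly highest in young replicate 1. Of 21 tested, 15 were highest there, edgeR and DESeq2 called 0, and 0 had an unadjusted p under 0.05. Il7r, which T cells need to survive, was at 1.72 and 9.60 CPM in aged and 88.3 and 0.921 CPM in young MFP, and Il21r, found on B and T cells, at 1.72 and 7.96 against 97.3 and 1.40 CPM. Of the other 6, Il13ra1, Il17re, Il17rc and Il31ra were highest in young replicate 2, Il17rd in aged replicate 1 and Il22ra1 in aged replicate 2.

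Il21, a cytokine of follicular helper T cells, was singled out after its values were seen, with 42 counts in aged replicate 2, 1 in aged replicate 1, and 14 and 0 in young replicates 1 and 2. Of the 8 skeletal muscle markers, 8 were higher in both aged libraries, of which DESeq2 called 7 and edgeR 0. These 7 were Acta1, Ckm, Ttn, Myh4, Tnnt3, Actn3 and Mb, with edgeR log2 fold changes from 1.88 (Acta1) to 3.86 (Mb). DESeq2 also called Lep (leptin, 1.20) and the matrix genes Dcn (decorin, 1.33) and Col1a1 (type I collagen, -1.60), and edgeR called none of these.

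In the other marker lists given here, where neither tool called a gene, the 2 largest edgeR log2 fold changes were -1.12 for Lyz2 and 0.81 for Mrc1 (macrophage), 0.38 for Csf3r and -0.17 for S100a9 (neutrophil), -3.78 for Cd3d and -3.51 for Cd8a (T and natural killer cell), 0.97 for Vwf and 0.39 for Tek (endothelial), 1.498 for Dsg3 and 1.42 for Krt1 (keratinocyte), and 0.33 for Elf5 and -0.17 for Krt8 (luminal). The log2 fold change of Cd79a, a B cell marker, was -2.73. In the mast cell list the 2 largest were those of Cma1, at 1.91, and Fcer1a, which had 14 and 13 counts in aged and 1 in each young library.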
